A study of Mus musculus with 5 samples.

Results

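The transcripts described here are 10 mRNAs, of which 8 encode core proteins of small nucleolar ribonucleoproteins (snoRNPs) and 2 encode abundant proteins of the nucleolus. They were taken as a list of gene names: Fbl, Nop56, Nop58 and Snu13 of the box C/D particles, Dkc1, Nhp2, Nop10 and Gar1 of the box H/ACA particles, and Ncl and Npm1, out of 55385 genes listed in each count table. All 10 were found by symbol and all passed the filter on low counts. The tables also list 13 small nucleolar RNA (snoRNA) genes that lie inside 4 of these genes on the same strand, and these were described with their hosts.

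Surface-seq was performed on EL4, an established mouse T-cell lymphoma line, whose plasma membranes were wrapped around polymer cores to give membrane-coated nanoparticles (MCNPs). In variation A (libraries A1, A2 and A3), RNA was extracted from whole MCNPs and made into a library. In variation B (libraries B1 and B2), a 3′ RNA adaptor was first ligated to the RNA that faces outward on the particles. The labels also describe EU labelling of EL4 cells for imaging, and no untreated, whole-cell or intracellular library was analysed here. Values are given below in the order of the replicate numbers. The comparison asks which RNAs differ between the RNA of the whole membrane preparation and the RNA open to ligation on its outer face. The library protocol and the side of the membrane changed together between the variations and cannot be told apart. The labels do not say that the libraries came from separate cultures, so p-values measure the spread between these libraries, which may be technical.

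Box C/D and box H/ACA snoRNPs modify ribosomal RNA in the nucleolus. In each, a snoRNA base-pairs with the target, and a shared set of core proteins carries the enzyme: Fbl (fibrillarin) methylates the 2′-hydroxyl of the ribose, and Dkc1 (dyskerin) converts uridine to pseudouridine. In mammals most snoRNAs are cut from introns of protein-coding or noncoding host genes, so that one primary transcript yields both an mRNA and a snoRNA, and several genes for snoRNP proteins are themselves hosts.

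The 4 intronic snoRNAs with enough counts to be tested are shown first, because the results on the hosts and their snoRNAs turn on them. All are box C/D snoRNAs, and the capitals mark TGATG within the first 25 bases (the core of the C box) and CTGA within the last 20 bases (the D box), searched on the snoRNA strand only. Snord82 lies in Ncl at chr1:86356261-86356330 (minus strand), Snord70 and Snord11 lie in Nop58 at chr1:59691934-59692020 and chr1:59704790-59704873 (plus strand), and Snord110 lies in Nop56 at chr2:130275506-130275573 (plus strand), all on GRCm38. None of them has a base in an annotated exon of its host. The sequences are the GENCODE M21 transcripts, written as DNA from 5′ to 3′.
Snord82: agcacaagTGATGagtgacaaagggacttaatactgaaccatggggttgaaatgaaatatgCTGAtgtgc
Snord70: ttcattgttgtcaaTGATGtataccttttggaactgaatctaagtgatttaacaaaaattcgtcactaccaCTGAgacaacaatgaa
Snord11: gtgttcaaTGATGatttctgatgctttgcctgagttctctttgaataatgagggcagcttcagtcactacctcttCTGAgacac
Snord110: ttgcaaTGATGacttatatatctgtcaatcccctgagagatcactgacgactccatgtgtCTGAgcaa

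Both strings were present in 74.7% of the 454 annotated snoRNAs of 60 to 100 bases, so their presence does not set these 4 apart. Nop58 holds 2 further box C/D genes that resemble the 2 above, and they are shown because Gm26293 lies wholly in host exons and could not be counted, while Gm26287 could be and had few counts.
Gm26293: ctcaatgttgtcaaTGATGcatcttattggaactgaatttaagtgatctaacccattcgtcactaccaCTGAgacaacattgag
Gm26287: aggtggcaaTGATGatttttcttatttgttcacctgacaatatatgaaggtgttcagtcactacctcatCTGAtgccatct

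Gm26293 (chr1:59692509-59692592) was identical to Snord70 at 83.9% of aligned positions, with a longest shared run of 25 bases. Gm26287 (chr1:59704258-59704338) was identical to Snord11 at 67.0% of aligned positions, with a longest shared run of 15 bases.

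The libraries differed in depth and make-up before any single gene was considered. The counts on genes totalled 1187117 to 4502174 in variation A and 21862003 to 22980172 in variation B. The 10 mRNAs together received 1898, 1378 and 358 counts in variation A and 26487 and 29681 in variation B. Counts on ribosomal RNA genes took 50.0% to 54.0% of variation A and 23.0% to 24.2% of variation B, and counts on snoRNA genes took 0.139% to 0.313% and 4.75% to 5.03%. Results at equal depth, and shares without ribosomal RNA, are given below where they differ. Levels were therefore given as CPM, the counts per 1000000 of the library size corrected by edgeR's TMM factors, on which 3 counts equal 1.16 to 4.43 CPM in variation A and 0.0707 to 0.0729 CPM in variation B. These floors cover counting error only. T-lymphocyte markers were counted in every library (9 of 9 genes, 662 to 991 CPM summed), with Cd3e and Cd3g higher in variation B and 3 of the 9 at negative fold changes, of which Cd2 and Cd5 lay wholly below variation A without passing the test. B-cell markers had 0 to 11 counts per library with Ms4a1 at 0 throughout, and erythroid and fibroblast markers had at most 6. The 4 myeloid markers summed to 1.48, 5.04 and 2.95 CPM in variation A and 2.77 and 3.14 CPM in variation B, within which Lyz2 had 0 counts in each variation A library and 73 and 133 in variation B.

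Of the 10 mRNAs, Fbl fell in variation B and the other 9 did not pass the test, which required an adjusted p under 0.05 from edgeR's quasi-likelihood test and a fold change above 2. The counts were thus 0 higher and 1 lower of 10, against 11.0% higher and 12.4% lower among the 10287 genes tested, so the share of calls lies near that of all genes. The log2 fold change of variation B over A was negative for 8 of the 10, where 48.4% of all genes were negative, and the median over the 10 was -0.55, where that of all genes was 0.05. In bulk libraries such as these, fewer cells with a transcript and less of it per cell cannot be told apart.

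Fbl, the methyltransferase of the box C/D particle (chr7:28169710-28179269, plus strand), had 71, 52 and 24 counts in variation A and 487 and 623 in variation B. On the CPM scale these were 35.1, 20.2 and 35.4 in variation A and 11.8 and 14.7 in variation B. Both variation B libraries lay below all 3 of variation A, as they did for 26.7% of all genes tested. The means were 30.2 ± 8.71 (SD, n = 3) in variation A and 13.3 ± 2.02 CPM (SD, n = 2) in variation B. The log2 fold change was -1.16 (SE 0.36, adjusted p = 0.0492 by edgeR), a 2.24-fold lower level. The call was narrow. It was kept with DESeq2, RLE and upper-quartile factors and lost in the other 12 of 15 alternative settings, in 11 of them with the same direction (adjusted p from 0.0464 to 0.281). It was lost without A1 (log2 fold change -0.82) and without A3 (-0.99), both short of the fold threshold. Without A2 it was lost on the adjusted p, and the log2 fold change was -1.34. Without B1 or B2, which leaves a single variation B library, the log2 fold change was -1.03 and -1.34. On library totals alone the log2 fold change was 0.26 (adjusted p = 0.64), with all genes then shifted by a median of 1.50. On that scale 2 of the 10 mRNAs (Ncl and Nop58) were higher and 0 lower, against 55.0% and 2.94% of all genes. Relative to that median Fbl stood at -1.24, against -1.21 with TMM.

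Nop56 and Nop58 are paralogous scaffold proteins that sit side by side in the box C/D particle, and their mRNAs lay on opposite sides of the comparison. Nop56 (chr2:130274430-130279313, plus strand) measured 36.1, 41.1 and 35.4 CPM in variation A and 21.8 and 22.6 CPM in variation B. Nop58 (chr1:59684971-59719044, plus strand) measured 54.3, 39.5 and 54.6 CPM in variation A and 63.1 and 75.6 CPM in variation B. Variation B lay wholly below A for Nop56 and wholly above A for Nop58, a separation in these directions that 26.7% and 31.2% of all genes also showed. Neither passed the test. The log2 fold change was -0.76 for Nop56 (SE 0.28, adjusted p = 0.0806 by edgeR) and 0.50 for Nop58 (SE 0.29, adjusted p = 0.229). With the trend of counts with gene length removed, Nop58 measured 0.06 (adjusted p = 0.893) and Nop56 -0.73. Snu13, which binds the kink-turn of box C/D RNAs and also of U4 small nuclear RNA, rested on few counts in variation A, with 14, 17 and 1. Its levels of 6.92, 6.59 and 1.48 CPM overlapped the 3.16 and 6.48 CPM of variation B, and the value in A3 was under the 3-count floor of that library.

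**Figure D1:**
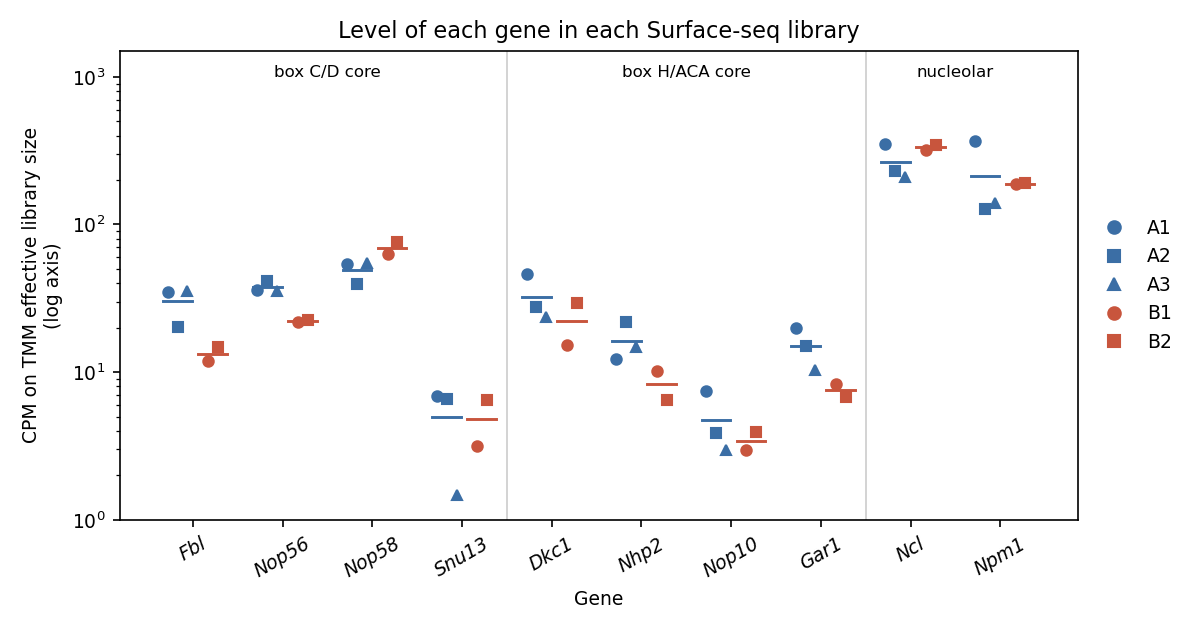
Level of each of the 10 mRNAs in each library, in CPM on the TMM effective library size (log axis), with variation A in blue, variation B in red and horizontal lines at the group means. Fbl, Nop56, Nhp2 and Gar1 have both variation B points below all variation A points, Nop58 has both above, and Npm1 in A1 (370 CPM) stands apart from A2 and A3 (127 and 140 CPM). Of all genes tested, 26.7% lay wholly below variation A in variation B and 31.2% wholly above.

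The 4 box H/ACA mRNAs all had negative fold changes and none passed the test. Gar1 (chr3:129824912-129831396, minus strand), a protein that joins the mature particle, measured 19.8, 15.1 and 10.3 CPM in variation A and 8.31 and 6.81 CPM in variation B, which did not overlap. Its log2 fold change was -1.05 (SE 0.38, adjusted p = 0.0744 by edgeR), and with all libraries thinned to equal depth it passed the test at -1.69 (adjusted p = 0.0347), where Fbl did not (adjusted p = 0.0836). Nhp2 (chr11:51619735-51623714, plus strand), an RNA-binding core protein related to Snu13, measured 12.3, 21.7 and 14.8 CPM in variation A and 10.1 and 6.51 CPM in variation B, again without overlap. Its log2 fold change was -0.99 (SE 0.40, adjusted p = 0.1). Both genes therefore lay at about the fold of Fbl with p-values that missed the threshold. Of all genes tested, 26.7% likewise had both variation B libraries below all of variation A.

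Dkc1 (chrX:75095854-75109777, plus strand), the pseudouridine synthase, which is also part of telomerase, showed the widest spread of these 4 between the variation B libraries. It measured 45.9, 27.5 and 23.6 CPM in variation A and 15.4 and 29.3 CPM in variation B, so the groups overlapped (log2 fold change -0.56, SE 0.41). The value ran from -1.10 without B2 to -0.17 without B1 and -0.11 without A1. Nop10 (chr2:112261926-112263269, plus strand), the smallest core protein, had 15, 10 and 2 counts in variation A and 122 and 166 in variation B. Its 7.41, 3.88 and 2.95 CPM overlapped the 2.97 and 3.91 CPM of variation B, and its value in A3 was below the 3-count floor.

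On the CPM scale, which is not corrected for length, Ncl and Npm1 had the highest levels of the 10. Ncl (nucleolin, an RNA-binding protein of ribosome assembly, chr1:86344719-86359400, minus strand) had 709, 596 and 142 counts in variation A and 13182 and 14604 in variation B. These were 350, 231 and 210 CPM against 320 and 344 CPM, and A1 lay above both variation B libraries (log2 fold change 0.33, SE 0.34, adjusted p = 0.486 by edgeR). Npm1 (nucleophosmin, a nucleolar chaperone, chr11:33152287-33163206, minus strand) had 748, 329 and 95 counts in variation A and 7686 and 8039 in variation B. Its 370, 127 and 140 CPM in variation A enclosed the 187 and 190 CPM of variation B (log2 fold change -0.18, SE 0.48, adjusted p = 0.798).

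Library A1 weighed most on these abundant mRNAs. Npm1 counts per Ncl count were 1.06, 0.552 and 0.669 in variation A and 0.583 and 0.550 in variation B, so A1 differed from every other library. Without A1, the log2 fold changes were 0.71 for Ncl (adjusted p = 0.00477 by edgeR), 0.62 for Npm1 (adjusted p = 0.00936) and 0.75 for Nop58 (adjusted p = 0.0133). All 3 stayed under the fold threshold of 2. Nhp2 was the 1 mRNA of the 10 that passed the test without A1 (log2 fold change -1.10, adjusted p = 0.0257), against 20.8% of all genes higher and 15.0% lower. The median over the 10 then moved from -0.55 to -0.03.

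**Figure D2:**
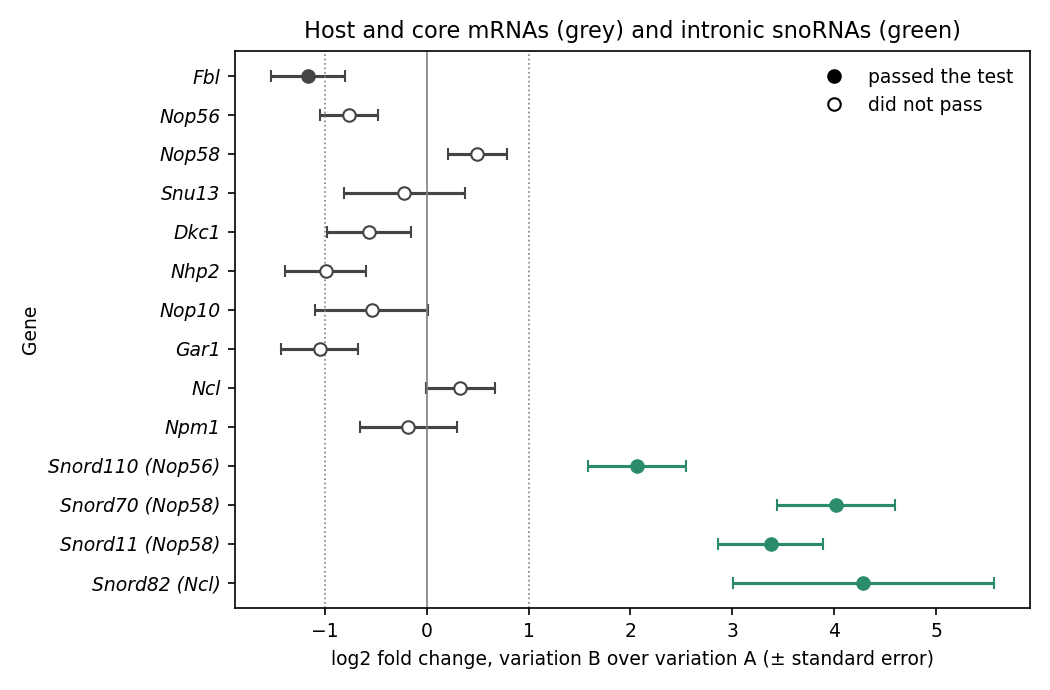
The log2 fold change of variation B over variation A with its standard error for the 10 mRNAs (grey) and the 4 tested intronic snoRNAs (green), with filled points for genes that passed the test and dotted lines at a fold of 2. The mRNAs lie between -1.16 and 0.50, and the snoRNAs lie between 2.07 and 4.28.

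A share of all counts is a level on the library total, a scale on which the median of all genes shifted upward in variation B (above). The 10 mRNAs took 0.0825%, 0.0306% and 0.0302% of all counts in variation A and 0.121% and 0.129% in variation B, a difference of 0.0774 percentage points (p = 0.2 by a two-sided exact permutation test, where 3 against 2 libraries cannot go below 0.1). Taken on the TMM library sizes, they differed by 0.000522 percentage points (p = 1.0, exact permutation test). With ribosomal RNA and mitochondrial genes left out of the total, the shares of 0.170%, 0.0667% and 0.0656% in variation A overlapped those of 0.162% and 0.175% in variation B. Of the protein-coding counts they took 0.210%, 0.135% and 0.137% in variation A and 0.190% and 0.200% in variation B (exact permutation test, p = 0.4). With Ncl and Npm1 left out, the other 8 took 0.0445% to 0.0487% and 0.0404% to 0.0474% of protein-coding counts. The share of the membrane mRNA pool held by the 8 core protein mRNAs thus overlapped between the variations.

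Within the 10, the division of counts was less alike. Ncl took 37.4%, 43.3% and 39.7% of their counts in variation A and 49.8% and 49.2% in variation B, which did not overlap (exact permutation test, p = 0.1, the smallest possible). Fbl took 3.74%, 3.77% and 6.70% in variation A and 1.84% and 2.10% in variation B, also without overlap. Nop56, Dkc1 and Gar1 likewise had lower shares in both variation B libraries than in any of variation A. The shares sum to 100 within a library, so a larger share for Ncl leaves less for the other 9. The counts on the 4 box C/D mRNAs per count on the 4 box H/ACA mRNAs were 1.55, 1.57 and 2.46 in variation A and 2.71 and 2.56 in variation B. Both variation B ratios lay above all of variation A (exact permutation test on log2 ratios, p = 0.2). Divided by exon length, the ratios of 0.612, 0.547 and 0.829 overlapped those of 0.750 and 0.899.

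**Figure D3:**
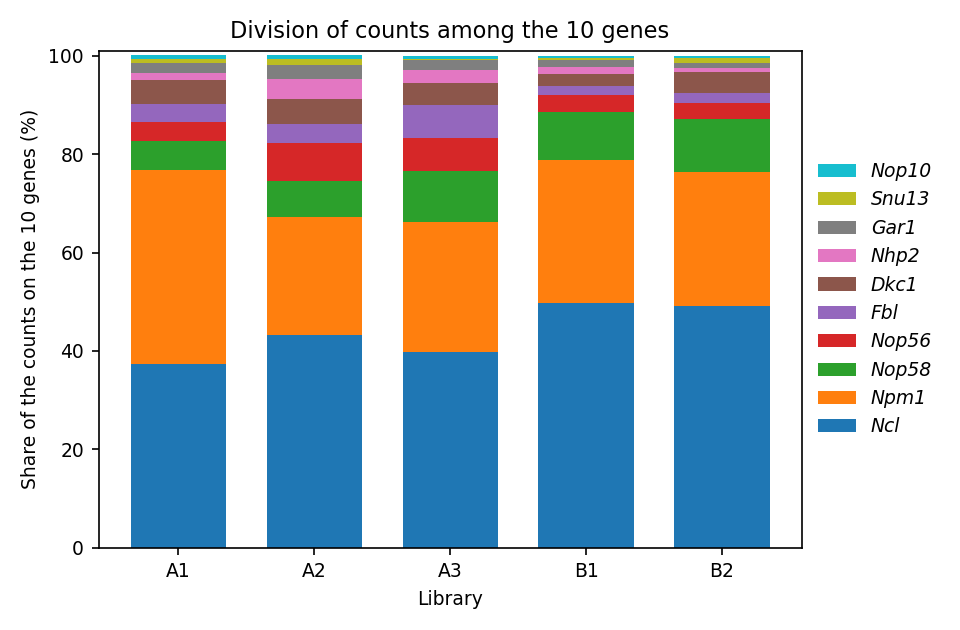
Percentage of the counts on the 10 mRNAs that fell on each of them, 1 stacked bar per library. Ncl takes 37.4% to 43.3% of the bar in variation A and 49.2% to 49.8% in variation B, and Npm1 takes its largest share, 39.4%, in A1.

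Levels between genes can be compared only per length. Per kilobase of the principal transcript and averaged within a variation, Npm1 was highest at 130 ± 83.4 CPM in variation A (SD, n = 3) and 115 ± 1.17 CPM in variation B (SD, n = 2). Ncl followed at 32.1 ± 9.25 and 40.5 ± 2.06 CPM per kilobase, and Nop58 lay beside it at 28.9 ± 5.04 and 40.5 ± 5.16, closer than their spread in both variations. The principal transcript used was the longest annotated as such, which for Ncl has 8202 bases, against 1633 for Npm1 and 1713 for Nop58. A shorter form would put Ncl higher per kilobase, so its place beside Nop58 depends on this choice. On the merged annotated exons, over which the reads were counted, Npm1 (79.7 and 70.6 CPM per kilobase) and Ncl (25.9 and 32.6) kept the top places and Snu13 the lowest (1.71 and 1.65), but Nop58 stood at 4.6 and 6.44, since its annotated exons total 10758 bases against 1713 in the principal transcript. The values that follow are per kilobase of the principal transcript. Fbl, at 25.2 ± 7.28 CPM per kilobase in variation A, overlapped Nop58 there, and at 11.1 ± 1.68 it was level with Nop56 (11.8 ± 0.331) in variation B. Nhp2, Gar1 and Dkc1 lay between 5.95 and 15.6 CPM per kilobase in the means, Nop10 at 4.28 and 3.10, and Snu13 was lowest at 2.40 ± 1.47 and 2.32 ± 1.13. The place of Nop58 among the box C/D mRNAs therefore depends on the length used: in variation A its mean lay above those of Fbl and Nop56 per principal transcript and below both (7.18 and 9.15 CPM per kilobase) per annotated exon.

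These levels also depend on how much of each mRNA can be counted, because reads that align to several places were dropped. Of the 30-base windows of the principal transcript, 79.5% for Fbl, 45.8% for Npm1, 38.3% for Nop56 and 17.7% for Snu13 occur identically in a transcript of another gene. For Fbl, 878 of the 928 shared windows occur in a processed transcript annotated under Tulp4, and for Npm1 the sharing spans 14 pseudogenes. The other 6 mRNAs shared 0% (Nop58) to 6.77% (Dkc1). Counts were taken without regard to strand, and 3 of the genes overlap a gene on the other strand, Nop56 by 5 bases (Idh3b), Dkc1 by 45 bases (Mpp1) and Nhp2 by 44 bases (Rmnd5b).

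The intronic snoRNAs that could be tested had larger fold changes than their host mRNAs. Of the 13 snoRNA genes, 5 lie in Nop56, 4 in Nop58, 3 in Ncl and 1 in Dkc1, and the other 6 genes hold none. Only 4 of the 13 passed the filter on low counts, and all 4 rose in variation B, where 11.0% of all genes tested did. A gene with few counts in variation A passes the filter only through high counts in variation B, so neither the 4 of 4 nor the size of these changes stands for all 13.

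Snord82, in Ncl, was by far the most counted. Its counts were 1072, 109 and 6 in variation A and 155534 and 161676 in variation B. These were 530, 42.2 and 8.85 CPM in variation A and 3781 and 3812 CPM in variation B. The variation B libraries lay close to each other whereas those of variation A spread widely, and the lowest of variation B exceeded the highest of variation A. The log2 fold change was 4.28 (SE 1.28, adjusted p = 0.0429 by edgeR), and it was 7.09 without A1.

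Snord70 and Snord11, both in Nop58, had at most 19 counts in any variation A library. Snord70 had 14, 6 and 0 counts there and 2518 and 2470 in variation B, or 61.2 and 58.2 CPM. Its log2 fold change was 4.02 (SE 0.58, adjusted p = 0.00387 by edgeR). Snord11 had 4, 19 and 1 counts in variation A and 1977 and 1683 in variation B, or 48.1 and 39.7 CPM, with a log2 fold change of 3.37 (SE 0.52, adjusted p = 0.00499). In A3 both were under the 3-count floor of 4.43 CPM, which the variation B levels exceed. Both calls held in 14 of 14 alternative settings in which they could be tested, but their size moved with single libraries, to 5.15 for Snord70 without A1 and 4.63 for Snord11 without A2.

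Snord110, in Nop56, changed least of the 4. Its counts were 51, 24 and 4 in variation A and 2469 and 2555 in variation B, or 25.2, 9.30 and 5.90 against 60.02 and 60.24 CPM. The log2 fold change was 2.07 (SE 0.48, adjusted p = 0.0197 by edgeR), and it was 2.95 without A1. With the trend of counts with gene length removed it was 0.67 (adjusted p = 0.464), and that of Snord82 was 2.64 (adjusted p = 0.181). Both calls were thus lost, while Snord70 and Snord11 passed at 2.87 and 2.39. With a block on replicate number as well, Snord82 was called (3.41, adjusted p = 0.0206 by edgeR) and Snord110 was not (0.67). Neither Snord82 nor Snord110 was called without A2 (3.85 and 1.83) or without A3 (3.78 and 1.88), with fold changes near those of all libraries. Nor were they called without B1 or B2, which leaves a single variation B library. Snord82 then measured 4.28 and 4.27 and Snord110 2.079 and 2.075.

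The ratio of a snoRNA to its host uses 2 counts from the same library and needs no scaling. Per 100 Ncl counts, Snord82 had 151, 18.3 and 4.23 in variation A and 1180 and 1110 in variation B. The lowest ratio of variation B was 7.32 times the highest of variation A (exact permutation test on log2 ratios, p = 0.2). Per 100 Nop56 counts, Snord110 had 69.9, 22.6 and 16.7 against 276 and 266 (exact permutation test on log2 ratios, p = 0.1, the smallest possible). The hosts are many times longer than the snoRNAs, so these ratios compare libraries and not the abundance of a snoRNA with that of its host.

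Per 100 Nop58 counts, Snord70 had 12.7, 5.88 and 0 counts in variation A and 97.1 and 77.1 in variation B, and Snord11 had 3.64, 18.6 and 2.7 against 76.2 and 52.5 (exact permutation test on log2 ratios, p = 0.2). The 0 in A3 left no log2 ratio to test for Snord70. In both pairs the variation B ratios lay above those of variation A. Summed over the 13 snoRNAs and the 4 hosts, the counts per 100 host counts were 116, 18.2 and 5.02 in variation A and 940 and 842 in variation B (log2 ratio difference 5.34, exact permutation test, p = 0.2). The log2 difference was 6.54 without A1 and 4.275 without A3. Snord82 dominated the sum over the snoRNAs. Without it the values were 7.21, 5.71 and 2.28 against 40.7 and 33.6, a log2 difference of 3.02 (exact permutation test, p = 0.1).

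**Figure D4:**
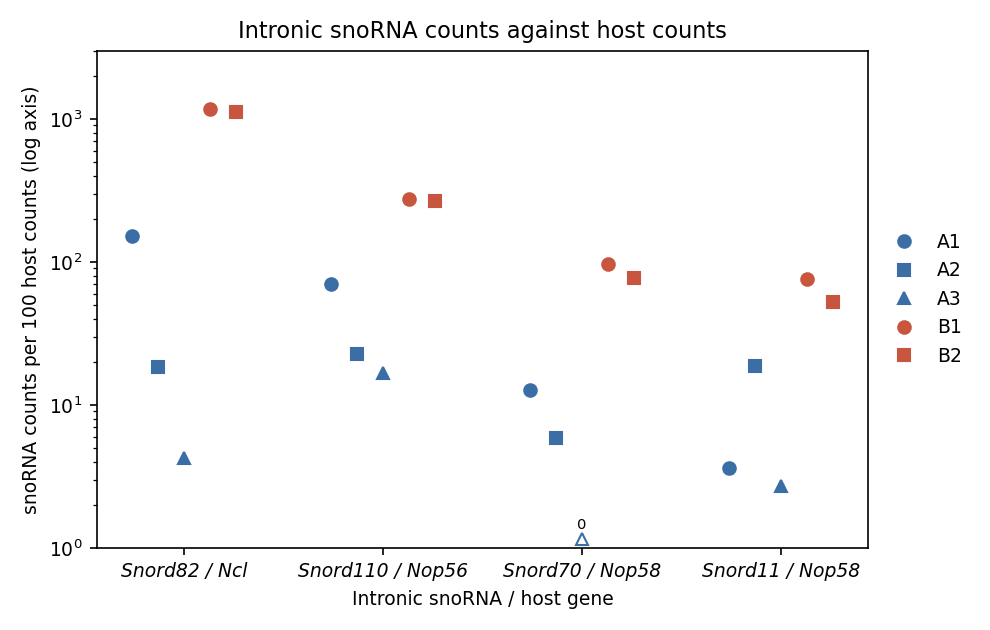
Counts of each tested intronic snoRNA per 100 counts of its host mRNA in each library (log axis), with variation A in blue and variation B in red, and an open symbol for the value of 0 in A3. For each pair both variation B points lie above all variation A points, from 2.82 times (Snord11) to 7.32 times (Snord82) between the nearest points.

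Intronic snoRNAs of other genes were described in the same way. Of 367 snoRNA genes inside other protein-coding genes, 94 were tested, 48 rose and 8 fell, with a median log2 fold change of 1.87. Of the 90 whose host was tested too, 64 had a larger fold change than the host, with a median excess of 1.69 on the log2 scale. The 4 described here had a median excess of 3.20. Both sets hold only genes that passed the filter on low counts, which for RNAs with few counts in variation A happens through variation B, so these values describe the genes that passed and do not compare the sets.

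The other 9 snoRNA genes had few counts or none. Gm26287, the relative of Snord11 in Nop58, had 2, 1 and 0 counts in variation A and 21 and 2 in variation B. Per 100 Nop58 counts these were 1.82, 0.98 and 0 against 0.81 and 0.0624, which overlapped. Gm24451, an H/ACA gene in Nop56 (chr2:130276237-130276369), had 0 counts in each variation A library and 52 and 17 in variation B. At 1.26 and 0.401 CPM, these levels lie below the 3-count floors of variation A or near them, so a difference was not detectable at this depth. The remaining 7 had 0 counts in every library.

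For 6 of these 7, the counting itself could not have given a read. Gm26293 in Nop58, Snora75 in Ncl, and Gm23187, Gm23650 and Snord57 in Nop56 lie wholly inside annotated exons of the host, where a read of the snoRNA falls on both genes and was dropped. Gm24148 in Ncl lies wholly inside an annotated microRNA gene, and 56 of its 80 bases are in host exons. Among all annotated snoRNA and scaRNA genes, 0 of the 154 that lie wholly inside an exon of another gene had a count in any library. Of the 1364 without such overlap, 234 (17.2%) had counts, as did 19 of the 40 with partial overlap. Gm26293 and Snord70 are thus 83.9% identical neighbours in Nop58, and the counts of 0 for Gm26293 say nothing of its abundance. Gm25520 in Dkc1 has no exon overlap and also had 0 counts.

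The other genes of the nucleolus gave a background for the 10 mRNAs. They comprised 113 genes in 5 lists, all tested, of which 2 rose (1.77%) and 17 fell (15.0%), against 11.0% and 12.4% of all genes. Their median log2 fold change was -0.26, and 71 of 113 were negative. On library totals alone the counts were 47 higher and 1 lower, where 55.0% of all genes were called higher and 2.94% lower. Of the 17 lower genes, 7 were positive on that scale, from 0.074 (Nol6) to 0.45 (Nob1), and 10 were negative, from -0.05 (Ruvbl2) to -2.56 (Npm3). The counts also moved with the libraries, as did those of all genes. Without A1 they were 20 higher and 21 lower, where 20.8% of all genes were higher and 15.0% lower. Without A2 they were 0 higher and 6 lower, where 420 of all 12149 genes tested were higher and 442 lower. Without A3 they were 0 higher and 6 lower, where 431 of 12064 were higher and 466 lower. Without B1 or B2, which leaves a single variation B library, fewer list genes and fewer of all genes were called than in any of these fits. Among the lower genes named below, Npm3 was called whichever library was left out. Rrp9 (-2.18) and Nop9 (-1.93) were not called without B2, nor Tbl3 without B1 (-2.09) or B2 (-1.72), nor Ruvbl2 (-1.89 to -1.19) and Taf1c (-2.48 to -1.89) without A2, A3, B1 or B2.

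Among the 13 snoRNP assembly factors 0 rose and 1 fell. Ruvbl2, an ATPase of the R2TP complex that helps to assemble box C/D particles, measured 41.0, 98.4 and 75.2 CPM in variation A and 19.5 and 27.8 CPM in variation B (log2 fold change -1.60, SE 0.42, adjusted p = 0.0277 by edgeR). Of the 34 small subunit processome genes 0 rose and 6 fell. Rrp9, the protein specific to the U3 snoRNP, fell from 21.7, 41.5 and 44.3 CPM to 7.88 and 4.27 CPM (log2 fold change -2.54, adjusted p = 0.00861). Tbl3 fell as well (-1.88, adjusted p = 0.00681), and Heatr1, with the highest mean CPM of that list over the 5 libraries, measured -0.06.

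Of the 38 large subunit assembly genes 2 rose and 7 fell. Rpf1 rose with a log2 fold change of 1.71 (adjusted p = 0.0427 by edgeR) and Nifk, which binds Ki-67, with 1.38 (adjusted p = 0.0284). Without A1 they measured 2.69 and 1.89. Neither was called without A2 (1.41 and 1.25) or without A3 (1.53 and 1.30). Nor were they called without B1 or B2, which leaves a single variation B library. Rpf1 then measured 1.61 and 1.82 and Nifk 1.38 and 1.39. With upper-quartile factors the call for Rpf1 was lost (adjusted p = 0.0502). Nop16 fell with -2.79 (adjusted p = 0.0162) and the helicase Ddx18 with -2.35 (adjusted p = 0.0126), which measured -1.69 without A1. Ddx18 was not called without B1 (-2.70) or B2 (-2.06), and Nop16, at -3.39 to -2.28, was called only with A1 as the library left out. Mdn1, a very large ATPase with the highest mean CPM of the list over the 5 libraries (not per length), measured 0.81 and did not pass. Of the 17 genes of RNA polymerase I transcription, only Taf1c, a subunit of its promoter selectivity factor, was called (-2.29, adjusted p = 0.0219), and Mybbp1a, with the highest mean CPM of the list, measured -0.92 (adjusted p = 0.0533).

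Among the 11 other nucleolar genes Npm3 and Nop9 fell. Npm3, a nucleoplasmin-family paralog of Npm1, had 30, 79 and 24 counts in variation A and 57 and 71 in variation B despite the greater depth there. Its 14.8, 30.6 and 35.4 CPM lay far above the 1.39 and 1.67 CPM of variation B (log2 fold change -4.09, SE 0.48, adjusted p = 0.00171 by edgeR), and the call held in 15 of 15 alternative settings. Npm1 in the same libraries measured -0.18. Nop9 measured -2.26 (adjusted p = 0.00838), and the helicase Ddx21, with the highest mean CPM of the list, 0.39. Of the other paralogs, Fbll1 had 0 counts in every library and Npm2 had 29 counts in B2 and 0 in the rest.

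**Figure D5:**
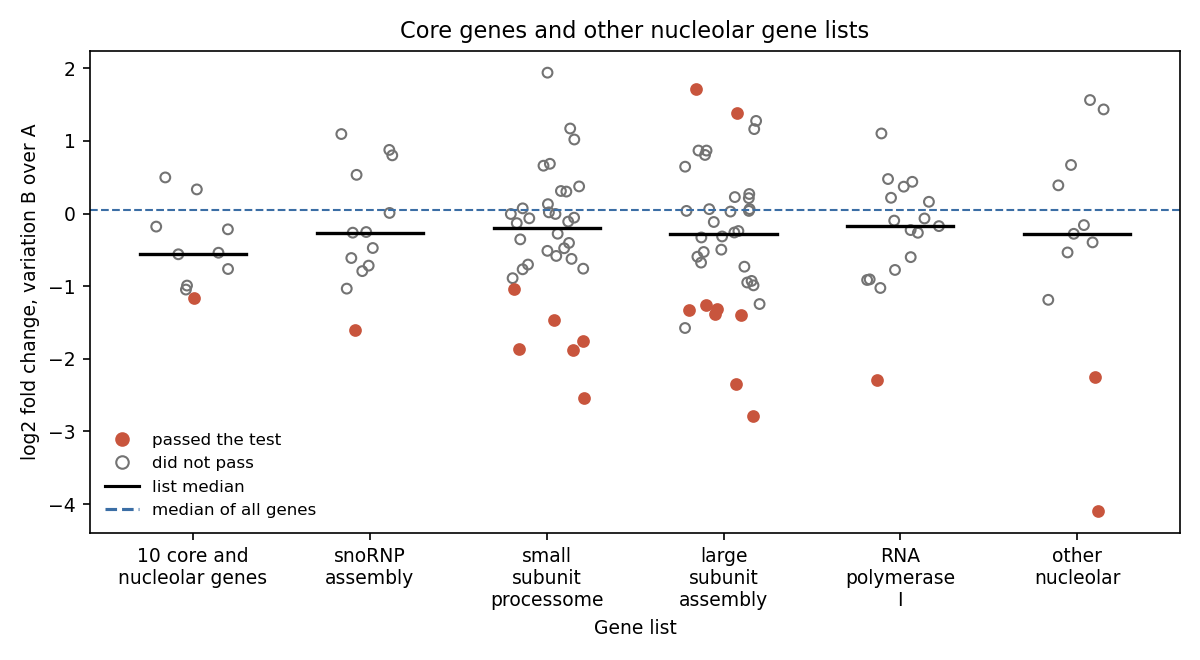
The log2 fold change of variation B over variation A for the 10 mRNAs and for each gene of the 5 other nucleolar lists, with filled points for genes that passed the test, black lines at the list medians and a dashed line at the median of all genes tested (0.05). The medians lie between -0.55 for the 10 mRNAs and -0.17 for RNA polymerase I, and the lowest point is Npm3 at -4.09.

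The 7 mRNAs with at least 10 counts in every library (all but Snu13, Nop10 and Gar1) had a mean profile that was highest in A1 and lowest in B1. Of 4455 other protein-coding genes, the nearest to it over the 5 libraries were Psat1, Ss18, Bub3, Mthfd1l and Cyfip1, at root mean square differences of 0.0423 to 0.0746 on the log2 scale. The 7 mRNAs themselves lay at 0.280 (Nop56) to 0.554 (Nhp2) from their own mean, where the median candidate lay at 0.544. Psat1, an enzyme of serine synthesis, measured 322, 245 and 236 CPM in variation A and 187 and 209 CPM in variation B. The likeness over 5 libraries is a description only.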

How the data were processed

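Surface-seq libraries from EL4 cells (3 of variation A, 2 of variation B) were assigned to groups by their titles. The authors trimmed with Trimmomatic 0.36, aligned with STAR 2.7.3a to GRCm38 and counted reads with featureCounts 1.6.4 on GENCODE M24 exons, without strand and without reads that align to several places or cover more than 1 gene. The deposited values are raw counts per gene and library.

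Symbols were matched to GENCODE M21 by identifier (55144 of 55385 genes). The variations were compared on all genes by the quasi-likelihood test of edgeR 4.0.16 (R 4.3.3) after filterByExpr and TMM scaling. P-values were adjusted by Benjamini-Hochberg over the 10287 genes tested, and calls required an adjusted p under 0.05 with a fold above 2. The fit was tested on simulated data. Shares and ratios were compared by exact permutation over libraries (numpy 2.4.6). No replicates differed by as little as sampling noise. DESeq2 1.42.0, other scalings and filters, a replicate block, gene length, equal depth and leaving out each library were tried as alternatives.

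The genes and lists were chosen with earlier results of these data known. Genes named were all 10 mRNAs and their snoRNAs, up to 2 called genes per direction and the gene with the highest mean CPM of each list, the paralogs, and the 5 nearest profiles. Named list genes needed 10 counts in each library of the higher group.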

Additional observations from a re-analysis of the deposited data

How the results depend on the processing

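RLE and upper-quartile factors turned no direction. Library totals shift all genes by a median of 1.50, and relative to that median the 10 mRNAs lay from -1.24 to 0.43, against -1.21 to 0.45 with TMM. On library totals alone 2 of the 10 mRNAs were higher (Ncl and Nop58) and 0 lower, their median log2 fold change was 0.84, and the list genes gave 47 higher and 1 lower. Fold changes then became 0.26 for Fbl, 0.71 for Nop56, 1.22 for Snu13, 0.83 for Dkc1, 0.53 for Nhp2, 0.85 for Nop10, 0.38 for Gar1, 1.14 for Npm1, 0.20 for Bop1 and Ppan, 0.18 for Pelp1, 0.45 for Nob1, 0.077 for Ebna1bp2, 0.074 for Nol6 and 0.075 for Rsl24d1. Lower mRNAs numbered 0 without the filter, under a filter of at least 10 counts per library, with the replicate block and with the length trend removed, with or without the block. Ncl measured -0.051 with the length trend removed and -0.10 with the block as well. Npm1 measured 0.017 without the filter and 0.021 with the filter of at least 10 counts per library.

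Leaving out 1 variation A library gave 0 to 1 lower mRNAs (Nhp2, without A1), 2 to 4 higher snoRNAs, and 0 to 20 higher and 6 to 21 lower list genes. All genes gave 2526 higher and 1821 lower without A1, 420 and 442 without A2, and 431 and 466 without A3. Without B1 or B2 fewer list genes and fewer of all genes were called than in any of these fits. With each library of either variation left out in turn, the median of the mRNAs ran from -0.78 to -0.027. Over the same fits, Nop10 ran from -0.76 (without B2) to 0.057 (without A1) and Npm1 from -0.39 (without A2) to 0.62 (without A1). Snu13 ran from -0.81 (without B2) to 0.21 (without B1), with 0.075 without A1 and 0.014 without A2. Higher snoRNAs numbered 2 with the length trend removed, 3 with the block as well, and 0 with the stricter filter, where none of the 4 could be tested. At equal depth Snu13 was not tested, and the median of the other 9 mRNAs was -0.82. The higher list genes numbered 1 with upper-quartile factors, 4 without the filter, at equal depth and with block and length trend, and 0 with the stricter filter. The lower list genes numbered 11 without the filter, 11 with the replicate block and 9 with block and length trend. The difference in the share of counts was 0.000522 on TMM sizes and 0.0150 percentage points without Ncl and Npm1, and the log2 snoRNA to host ratio was 3.02 without Snord82. The causes were not tested.

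The replicate numbers gave correlations of -0.106 (A1 with B1) and -0.0494 (A2 with B2), which show no pairing of the libraries. For each variation A library the values with B1 and B2 are equal and opposite, so they cannot settle whether libraries were paired. The block left 761 higher and 813 lower genes against 1135 and 1276. At equal depth Gar1 was the 1 lower mRNA (-1.69). In A3, Snu13, Nop10, Snord70 and Snord11 lay below the 3-count floor, which limits what can be said of them in that library.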
